A study of Mus musculus with 6 samples.

Results

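The endoderm transcription factors described here are 6 genes, *Gata4*, *Gata6*, *Sox17*, *Sox7*, *Foxa2* and *Hnf4a*. They were taken by symbol from a deposited RNA-Seq table of 21639 gene entries, and each symbol matched 1 entry, giving 6 members. The table covers 3 mouse ESC lines at 2 time points, with 1 library for each of the 6 conditions: self-renewing ESCs grown with LIF (day 0, D0) and embryoid bodies (EBs) made from them without LIF (day 3, D3). With 1 library per condition, the spread between cultures is unknown, and differences between lines on a day are given with no p-value.

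H2A.Z is a variant of histone H2A found around transcription start sites. All 3 lines carry a lentiviral short hairpin against the 3′ UTR of the endogenous H2A.Z transcript. H2A.Z WT cells also express YFP-tagged wild-type H2A.Z, and H2A.Z AP3 cells express a YFP-tagged form in which acidic patch residues were replaced by those of H2A (G92N, D97N and S98K). Both transgenes are driven by a doxycycline-inducible CMV promoter (doxycycline at 1 µg/ml) and YFP-positive cells were sorted. H2A.Z KD denotes hairpin cells depleted of endogenous H2A.Z. Further on the lines are called WT, AP3 and KD. The hairpin lines derive from KH2 ESCs, and the labels give the strain as V6.5 (129SvJaexC57BL/6). Cells were kept on feeder cells and passaged without them the last time before harvest. The labels name the cell type of the D3 libraries as ESCs, and that these are EBs comes from the study's methods.

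*H2afz*, the gene the hairpins target, was at 279 RPKM (reads per kilobase of transcript per 1 M mapped reads) in WT, 343 RPKM in KD and 304 RPKM in AP3 at D0. At D3 it was at 258, 236 and 394 RPKM. *H2afz* was therefore not lower under the KD label at D0, and libraries of that line are called labelled KD. Reads from the coding part of a transgene also align to *H2afz*. The ESC marker *Pou5f1* lay between 358 and 540 RPKM in the 6 libraries. Estimated depths ran from 16.8 to 29.3 M reads, and the deepest library was AP3 at D0.

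The 6 factors belong to 4 families of DNA-binding proteins. In the early mouse embryo, GATA6 and GATA4 (zinc finger factors that bind GATA motifs) and SOX17 and SOX7 (HMG-box factors of the SOXF group) act in the inner cell mass cells that become primitive endoderm, the source of the parietal and visceral endoderm of the yolk sac. FOXA2, a forkhead factor able to bind closed chromatin, and HNF4A, a nuclear receptor, act in visceral endoderm and again in definitive endoderm, the germ layer of gut and liver, where SOX17 is used too. In EBs these genes are known as markers of the endoderm that forms on the outer surface.

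In ESCs, all 6 factors were lowest in WT, intermediate in the library labelled KD and highest in AP3, and this order was seen in 11.4% of all gene entries. For *Sox17* and *Hnf4a* the first step, from WT to the library labelled KD, was within counting error. Against WT, all 6 were past 1.5-fold (0.58 on the log2 scale) higher in AP3 ESCs, with log2 changes from 1.25 to 1.90 and a median of 1.74, where 11.1% of all entries were past this threshold in that direction and the median of all entries was 0.00. With a pseudocount of 1 the median of the 6 was 0.88, and 5 were past the threshold. In EBs the AP3 and WT libraries were close, with 1 factor (*Sox7*) past 1.5-fold higher (background 10.4%) and a median log2 change of −0.12. *Gata4*, *Sox17*, *Foxa2* and *Hnf4a* were higher in AP3 than in WT at D0 and lower at D3, by any amount, as were 18.4% of all entries. The highest EB library was for every factor the one labelled KD (24.8% of all entries), which was also the highest of the 6 libraries (12.9% of entries), and the lowest of the 6 was WT at D0 (10.1%). All 3 EB libraries were above all 3 ESC libraries for each of the 6 factors (12.7% of all entries), and this count was also 6 without the libraries labelled KD, where 21.2% of entries had the pattern. Shares of entries with such orders were higher among those of at least 1 RPKM in a library. They were 14.8% for the ESC order, 24.5% for AP3 above WT at D0 and below at D3, and 29.7% for KD highest in EBs. For KD at D3 highest of the 6 libraries the share was 15.7%, and for WT at D0 lowest 14.1%. It was 18.9% for EB above ESC libraries, and 29.9% without the libraries labelled KD. In bulk RNA, a smaller number of cells of a type and less RNA per cell cannot be told apart.

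**Figure D1:**
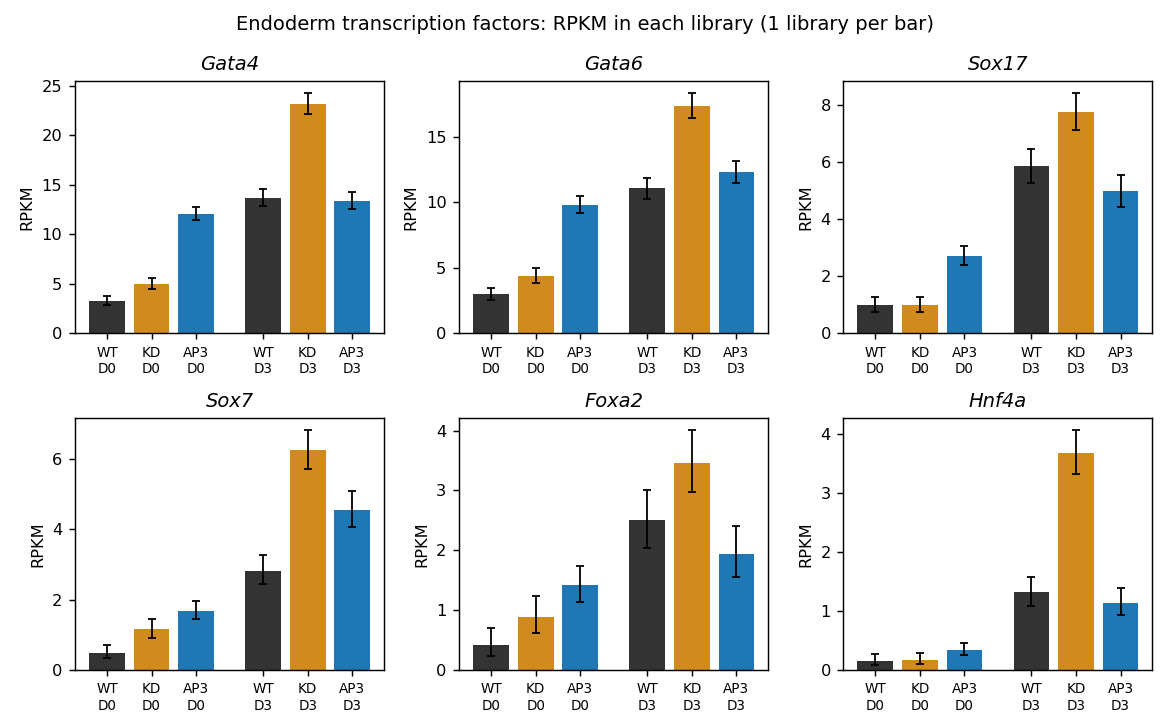
RPKM (y axis, linear from 0) of each endoderm transcription factor in the 6 libraries (x axis), 1 library per bar, with WT in grey, the libraries labelled KD in orange and AP3 in blue. Error bars are exact Poisson 95% intervals of the estimated reads and cover counting error only. Every factor is lowest in WT at D0 and highest in the library labelled KD at D3, and *Gata4* in AP3 ESCs (12.1 RPKM) is near its level in WT EBs (13.7 RPKM).

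*Gata4* lies on the − strand of mm9 at chr14:63817752-63864097, and its longest annotated transcript of 3400 bases has 7 exons. It was at 3.24 RPKM in WT, 4.94 RPKM in the library labelled KD and 12.1 RPKM in AP3 in ESCs, and 13.7, 23.2 and 13.3 RPKM in EBs in the same order. It was the highest of the 6 factors in every library, on a scale that is per length of transcript. The AP3 ESC library stood apart from the other ESC libraries and reached 88.3% of the WT EB level, whereas the WT ESC library was at 23.7% of it. AP3 against WT gave a log2 change of 1.90 at D0 (95% counting interval 1.67 to 2.13) and −0.03 at D3 (−0.17 to 0.10). These intervals come from the estimated number of reads in each library, cover counting error only and hold for the estimated depths. The log2 change of the library labelled KD against WT was 0.61 at D0 and 0.76 at D3, past 1.5-fold on both days. With a pseudocount of 1 the D0 value was 0.49, under the threshold, and the D3 value 0.72. Over the 3 days *Gata4* was higher by 2.08 on the log2 scale in WT and by 2.23 in the libraries labelled KD, and by 0.15 in AP3 (0.02 to 0.27), which is not past 1.5-fold.

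*Gata6* (+ strand, chr18:11052508-11085633, 7 exons) acts before *Gata4* in primitive endoderm. It was at 2.96, 4.38 and 9.84 RPKM in WT, the library labelled KD and AP3 in ESCs, and 11.1, 17.4 and 12.3 RPKM in EBs. The order of the ESC libraries and the near-equality of WT and AP3 EBs were those of *Gata4*. The log2 change of AP3 against WT was 1.73 at D0 (1.49 to 1.98) and 0.15 at D3 (0.01 to 0.30). The AP3 ESC level was 88.9% of that in WT EBs. In the library labelled KD, *Gata6* was just under the threshold at D0 (log2 0.56) and past it at D3 (0.65). The change from D0 to D3 was 1.90 in WT, 1.99 in the libraries labelled KD and 0.32 in AP3. Exons of *Gata6* overlap the antisense gene *1010001N08Rik* in the GENCODE annotation. Whether reads were counted by strand is not given in the sources used here, and without strand the reads of both genes cannot be told apart.

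*Sox17* (− strand, chr1:4481009-4486494, transcript of 3130 bases) encodes a SOXF factor of primitive and definitive endoderm and of early vessels. It was at 0.974 RPKM in WT, 0.977 RPKM in the library labelled KD and 2.70 RPKM in AP3 in ESCs, and 5.84, 7.75 and 4.96 RPKM in EBs. Unlike the GATA genes, the ESC libraries of WT and KD did not differ beyond counting error (log2 0.00, interval −0.57 to 0.58), and AP3 stood alone above both. The log2 change of AP3 was 1.47 against WT (1.04 to 1.94) and 1.46 against the library labelled KD at D0. At D3 the change of AP3 against WT was −0.23 (−0.46 to −0.01), not past 1.5-fold. *Sox17* in AP3 ESCs reached 46.2% of the WT EB level, a smaller share than for the GATA genes, and it was higher by 0.88 on the log2 scale from D0 to D3 in AP3, against 2.58 in WT and 2.99 in the libraries labelled KD.

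*Sox7* (+ strand, chr14:64562543-64569569, 2 exons) lies on the same chromosome as *Gata4* and encodes a SOXF factor known from parietal endoderm cells and early vessels. It was at 0.486, 1.15 and 1.68 RPKM in WT, the library labelled KD and AP3 in ESCs, and 2.83, 6.27 and 4.56 RPKM in EBs. It was the factor for which WT was lowest on both days with the other lines both past 1.5-fold above it. The log2 change of AP3 against WT was 1.79 at D0 (1.20 to 2.43) and 0.69 at D3 (0.42 to 0.96), and that of the library labelled KD was 1.24 and 1.15. With a pseudocount of 1 the D3 change of AP3 was 0.54 and the D0 change of the library labelled KD 0.53, both under the threshold. Its change from D0 to D3 in AP3 was 1.44, second to *Hnf4a* among the 6 factors, and 2.54 in WT and 2.45 in the libraries labelled KD.

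*Foxa2* lies on the − strand of mm9 at chr2:147868614-147872705, with 3 exons in its transcript of 2128 bases. It was at 0.420, 0.884 and 1.41 RPKM in WT, the library labelled KD and AP3 in ESCs, and 2.50, 3.45 and 1.94 RPKM in EBs. The AP3 line was highest of the 3 in ESCs and lowest of the 3 in EBs. The log2 change of AP3 against WT was 1.75 at D0 (0.95 to 2.65), a value that rests on 15 estimated reads in WT and 88 in AP3, and −0.36 at D3 (−0.79 to 0.07). The library labelled KD differed from WT by 1.07 at D0 and 0.47 at D3. In EBs against ESCs *Foxa2* was higher by 2.57 in WT, 1.96 in the libraries labelled KD and 0.46 in AP3, the last not past 1.5-fold.

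*Hnf4a* (+ strand, chr2:163372924-163398643, 10 exons) encodes the nuclear receptor that drives serum protein and apolipoprotein genes in visceral endoderm and liver. It was the lowest factor in 5 of the 6 libraries, at 0.143, 0.174 and 0.343 RPKM in WT, the library labelled KD and AP3 at D0. At D3 it was at 1.32, 3.68 and 1.14 RPKM, so that the library labelled KD stood apart from the other EB libraries. The ESC values correspond to 11, 14 and 44 estimated reads. The log2 change of AP3 against WT at D0 was 1.25 with a wide counting interval of 0.22 to 2.30, and it was 0.23 with a pseudocount of 1. The D3 change of the library labelled KD was 1.48 against WT (1.18 to 1.80), the largest of the 6 factors in that comparison, and AP3 was lower than the library labelled KD by a log2 change of −1.70 (−2.03 to −1.37). Between ESCs and EBs *Hnf4a* was higher by 3.19 in WT, 4.40 in the libraries labelled KD and 1.72 in AP3. The deposited locus starts at the downstream of the *Hnf4a* promoters, and reads in shared exons also include transcripts from the upstream start.

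Promoter windows from RefSeq (GRCm38.p6, 250 bases before to 50 after a start) were matched for *Foxa2*, with 3 starts, and *Hnf4a*, with 2. They were searched on both strands for letters that the factor families bind: AGATAA for GATA factors, ACAAAG for SOX factors, TGTTTAC and TATTTAC for FOXA and CAAAGTCCA for HNF4, and for the TATA box (TATAAA). The stretches of 30 bases below are shown because they carry the letters of other factors of the group in the promoters of the 2 genes, and the capitals mark the match as read on the strand of the gene.
*Foxa2* GATA: ctgttagccttgAGATAAtattaactttgt
*Foxa2* SOX: agataatattaaCTTTGTgatcaaatattg
*Hnf4a* GATA: gaagaatcaataAGATAAccgggcggggtg

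The *Foxa2* stretches lie at chr2:148045630-148045659 and chr2:148045618-148045647 on the − strand, with first matched bases at −183 and −171 relative to the start at 148045464 (GRCm38.p6). They overlap. The same window held ACAAAG again at 29 and the reverse complement of TATAAA at −208, and the other *Foxa2* windows held none of these letters. The *Hnf4a* GATA stretch (chr2:163506793-163506822, + strand) belongs to the upstream start, with its match at −52, and the window of the downstream start held none of these letters. Of all 32817 RefSeq promoters of the same length, 11.2% held AGATAA, 18.7% ACAAAG and 13.6% TATAAA on either strand. The FOXA letters (3.65% and 3.04% of promoters) and the HNF4 letters (0.475%) were in none of the 5 windows. A match of letters is a description of the sequence and not a bound site, and no match says only that these letters are not in the window.

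In the comparison of the library labelled KD with WT at D0, 3 of the 6 factors (*Gata4*, *Sox7* and *Foxa2*) were past 1.5-fold higher, where 8.96% of all entries were. At D3, 4 factors (*Gata4*, *Gata6*, *Sox7* and *Hnf4a*) were past it (background 9.41%), and all 6 had log2 changes above 0, from 0.41 for *Sox17* to 1.48 for *Hnf4a*. With a pseudocount of 1, none of the 6 was past the threshold at D0 and 4 were at D3. AP3 was past 1.5-fold above the library labelled KD for 5 factors at D0 (background 13.5%), the exception being *Sox7* at 0.55. With a pseudocount of 1 this count was 3, without *Foxa2* (0.36) and *Hnf4a* (0.19), and at 2-fold it was also 3. At D3 it was past 1.5-fold below that library for 4 factors, *Gata4*, *Sox17*, *Foxa2* and *Hnf4a* (background 11.1%). These 4 factors were past 1.5-fold above it at D0 and below it at D3, which was seen in 2.46% of all entries. With a pseudocount of 1 this held for 1 factor, *Gata4*, and at 2-fold for none. The count of factors below the library labelled KD at D3 was 3 with a pseudocount of 1, without *Sox17* (−0.55), and 1 at 2-fold. Shares of all entries with a pseudocount of 1 or at 2-fold were not computed, so counts at these settings have no background. AP3 was above the library labelled KD at D0 and below it at D3, by any amount, for all 6 factors and for 19.1% of all entries. Among entries of at least 1 RPKM in a library this share was 25.6%. Comparisons with a line in common share its library, so that these counts are not independent of each other.

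**Figure D2:**
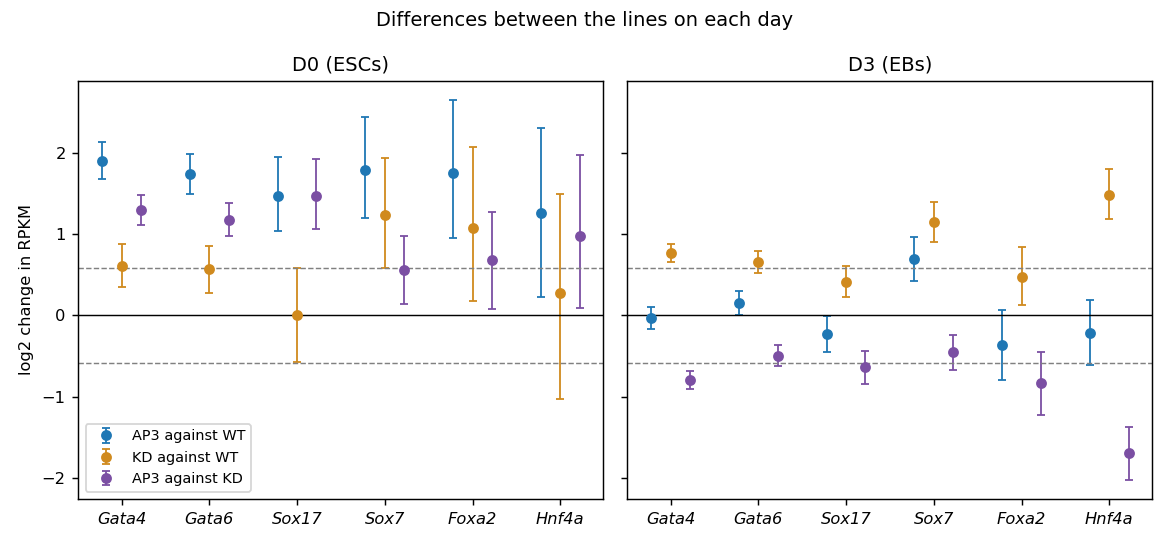
Log2 change in RPKM (y axis) of each factor (x axis) for AP3 against WT (blue), the library labelled KD against WT (orange) and AP3 against the library labelled KD (purple), at D0 (left) and D3 (right), with 1 library per condition. Bars are 95% counting intervals and dashed lines mark 1.5-fold. The blue points lie between 1.25 and 1.90 at D0 and between −0.36 and 0.69 at D3, and all purple points are above 0 at D0 and below 0 at D3.

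From D0 to D3, all 6 factors were past 1.5-fold higher in WT (log2 1.90 to 3.19, background 14.1%) and in the libraries labelled KD (1.96 to 4.40, background 14.0%). In AP3, 3 factors were past it (*Sox17*, *Sox7* and *Hnf4a*, background 14.7%), and *Gata4*, *Gata6* and *Foxa2* were not, at 0.15, 0.32 and 0.46. The median of the 6 log2 changes was 2.55 in WT, 2.34 in the libraries labelled KD and 0.67 in AP3, with the median of all entries at 0.00 in each. The day change was also fitted over the 3 lines with limma, with line and day as terms and 2 residual degrees of freedom, which takes lines of different genotype as repeats of 1 day change. The fit was added after the data were seen. On the log2(RPKM + 0.1) scale the EB libraries were higher by 1.38 (*Gata6*, 95% interval 0.69 to 2.08) to 2.06 (*Sox17*, 1.24 to 2.88) for the 5 factors that reached 1 RPKM in an ESC library, with each higher in 3 of 3 lines and limma adjusted p from 0.0034 (*Sox7*) to 0.0401 (*Gata4*) over 12702 entries of at least 1 RPKM in a library. Of these entries, 5.39% were higher at an adjusted p under 0.05. *Hnf4a* reached 1 RPKM only in EBs, so that its entry into the fit was set by the day on which it is high, and its change of 2.60 (1.47 to 3.73) is given as a value with no call. The limma calls rest on the filter and on single lines. Without the filter none of the 6 factors and 0 of 21639 entries had an adjusted p under 0.05 in limma (0.169 to 0.361 for the factors), with 3 factors and 1930 entries higher at an unadjusted p under 0.05. In limma without the line labelled KD, or without WT, 0 of the 5 factors had an adjusted p under 0.05 (0.0714 to 0.249, and 0.0806 to 0.336) and 4 had an unadjusted p under it. The entries higher by adjusted p also fell over the whole table, to 68 (0.535%) without the line labelled KD and 27 (0.213%) without WT, with 1478 and 910 higher at an unadjusted p under 0.05. Without AP3, *Sox17* and *Foxa2* also reached 1 RPKM only in EBs. The 3 factors left, *Gata4*, *Gata6* and *Sox7*, were higher in both lines, with changes fitted over the lines of 1.92 to 2.34 on the log2 scale. Their adjusted p in limma ran from 0.00042 to 0.00123, where 801 entries (6.31%) were higher. For every factor the change over time was smaller in AP3 than in WT, by 1.10 (*Sox7*) to 2.11 (*Foxa2*) on the log2 scale, a difference that was not tested. The D0 level of AP3 was between 26.1% (*Hnf4a*) and 88.9% (*Gata6*) of the WT level at D3, whereas the D0 level of WT was between 10.9% and 26.8% of it.

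**Figure D3:**
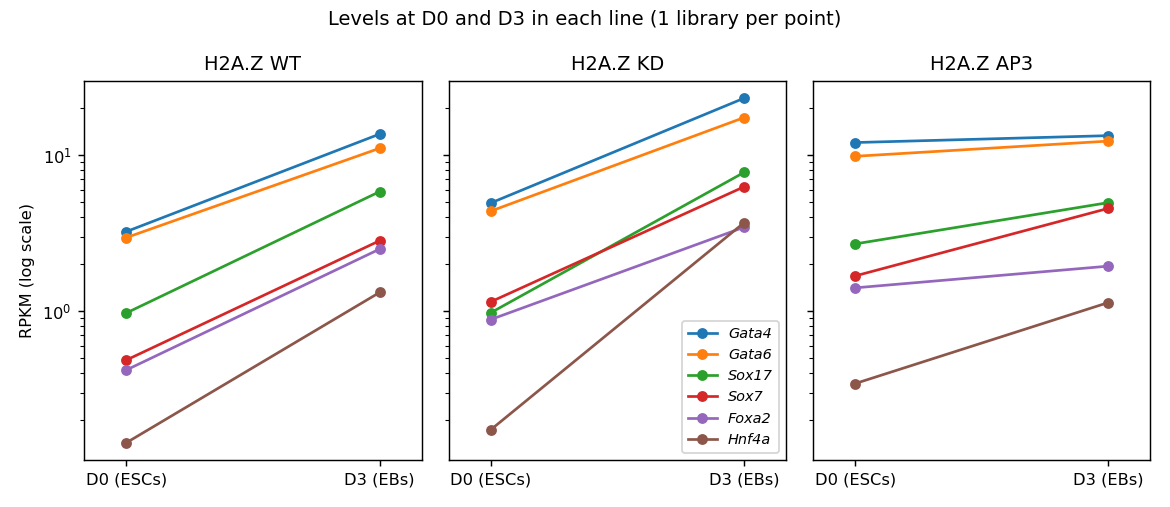
RPKM (y axis, log scale) of the 6 factors at D0 and D3 (x axis) in WT, the libraries labelled KD and AP3, 1 library per point, each line joining 1 factor. The lines for AP3 start higher and are flatter, with *Gata4* at 12.1 RPKM at D0 and 13.3 RPKM at D3.

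Relatives and partners of the 6 factors were a list of 18 genes, 10 of which did not reach 1 RPKM in any library. In AP3 against WT at D0, 6 of the 18 were past 1.5-fold higher and 3 lower (backgrounds 11.1% and 13.9%), with a median log2 change of 0.09. With a pseudocount of 1, 3 of the 18 were past it in either direction. *Hhex*, a homeobox gene of anterior endoderm, was past 1.5-fold higher in AP3 ESCs (6.12 RPKM) than in WT ESCs (3.64 RPKM, log2 0.75), and between 4.82 and 6.00 RPKM in EBs. *Otx2*, a homeobox gene of epiblast and anterior visceral endoderm, was lower in AP3 ESCs (1.37 RPKM) than in WT ESCs (4.22 RPKM), and between 17.5 and 24.6 RPKM in EBs. *Sox18*, the other SOXF gene, was at 1.99 RPKM in AP3 EBs and at most 0.392 RPKM in the other libraries.

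Of 22 genes known as products of primitive and visceral endoderm, 9 were past 1.5-fold higher and 1 lower in AP3 against WT ESCs, with a median log2 change of 0.36 (backgrounds 11.1% and 13.9%). *Cubn* and *Dab2*, an endocytic receptor of visceral endoderm and its adaptor, were at 2.64 and 9.25 RPKM in WT and at 12.0 and 22.4 RPKM in AP3. *Apoe*, which encodes an apolipoprotein, was at 459 and 846 RPKM and makes up most of the summed level of the list. *Ttr*, *Afp* and *Apoa4*, which encode secreted proteins of the yolk sac, were listed at 0 in both lines at D0 (*Afp* and *Apoa4* are named after their values were seen). In EBs, 18 of the 22 genes were past 1.5-fold higher and none lower in the library labelled KD against WT, with a median log2 change of 1.18 (backgrounds 9.41% and 11.3%). *Cubn* was at 26.2 RPKM in WT, 93.3 RPKM in the library labelled KD and 34.6 RPKM in AP3, and *Ttr* was at 1.81, 8.57 and 1.10 RPKM. *Rbp4*, which encodes the retinol carrier, was at 3.16, 14.7 and 1.57 RPKM. *Apoe* and *Apoa2* were lower in the EB library labelled KD than in WT EBs, with log2 changes of −0.42 and −0.37, not past 1.5-fold. *Apoe* was at 1009 RPKM in WT EBs and 752 RPKM in the library labelled KD. The summed level of the list in EBs was therefore nearly equal, at 1241 RPKM in WT and 1286 RPKM in the library labelled KD (log2 0.05). AP3 EBs had 17 of the 22 past 1.5-fold lower than the library labelled KD and 1 higher (median −1.03, backgrounds 11.1% and 11.6%). Between the days, 18, 20 and 15 of the 22 were past 1.5-fold higher in WT, the libraries labelled KD and AP3 (backgrounds 14.1%, 14.0% and 14.7%), and 1, 1 and 2 were past it lower (backgrounds 16.5%, 16.2% and 16.3%). The library labelled KD at D3 was the highest of the 6 libraries for 17 of the 22 (12.9% of all entries).

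The 14 genes of parietal endoderm and basement membrane had 9 past 1.5-fold higher and none lower in AP3 against WT ESCs, with a median of 0.97 (backgrounds 11.1% and 13.9%). *Lama1*, a laminin chain gene, was at 17.3, 22.8 and 65.2 RPKM in WT, the library labelled KD and AP3 in ESCs, and 69.0, 123 and 64.7 RPKM in EBs. *Sparc*, which encodes a matrix protein abundant in parietal endoderm, was at 98.4, 102 and 237 RPKM in ESCs, and 296, 408 and 249 RPKM in EBs. *Lamb1*, another laminin chain gene, was at 42.6, 48.3 and 94.3 RPKM in ESCs, and 107, 160 and 87.9 RPKM in EBs. *Vim* was at 87.1, 52.2 and 107 RPKM in ESCs, and 17.2, 14.5 and 30.9 RPKM in EBs. In the library labelled KD against WT, 0 of the 14 were past 1.5-fold higher and 1 lower at D0, with a median of −0.05 (1938 and 2317 of 21639 entries). At D3, 4 were higher and 1 lower, with a median of 0.50 (backgrounds 9.41% and 11.3%). The library labelled KD at D3 was the highest of the 6 libraries for 8 of the 14, these 3 among them, AP3 at D0 for 5 and AP3 at D3 for 1, against 12.9%, 16.7% and 14.8% of all entries. From D0 to D3 in AP3, 2 of the 14 were past 1.5-fold higher and 5 lower, against 9 and 3 in WT and 8 and 2 in the libraries labelled KD, where 14.7%, 14.1% and 14.0% of all entries were past it upwards in AP3, WT and KD, and 16.3%, 16.5% and 16.2% downwards.

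**Figure D4:**
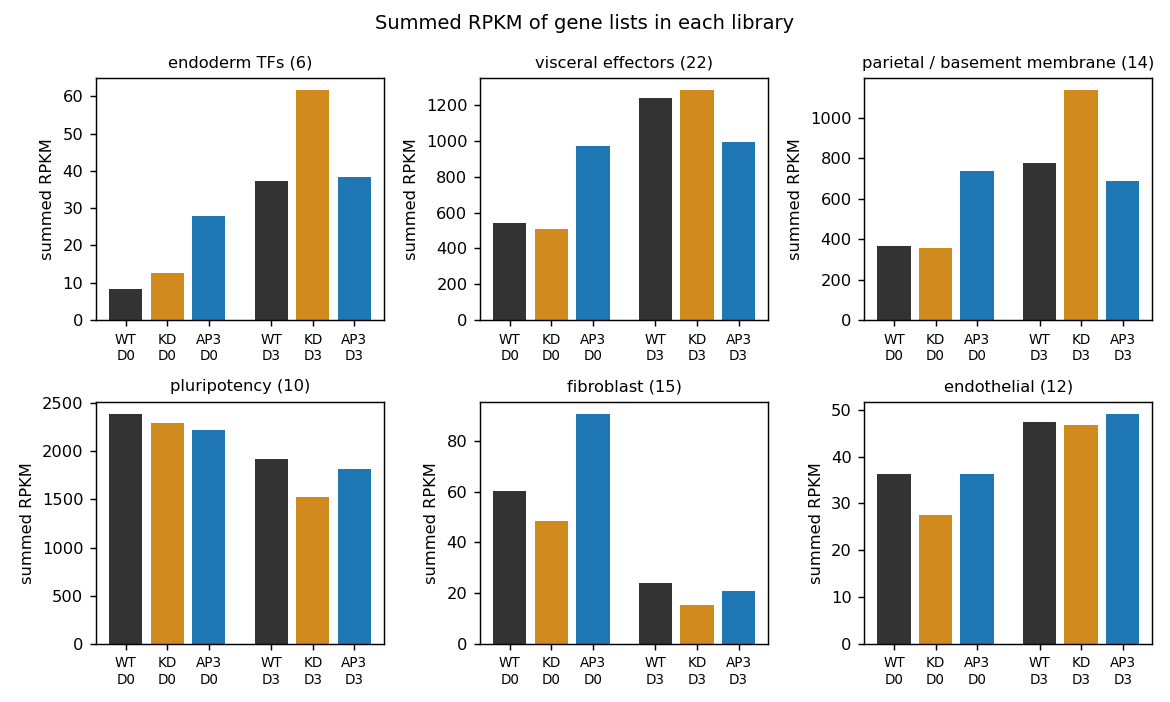
Summed RPKM (y axis, linear from 0) of 6 gene lists in the 6 libraries (x axis), colours as for the levels of single factors, with the number of genes found in each list in brackets. The endoderm factors sum to 8.23, 12.5 and 28.0 RPKM at D0 in WT, the library labelled KD and AP3, and fibroblast markers to 60.5, 48.3 and 90.8 RPKM. At D3 the factors sum to 37.2, 61.7 and 38.3 RPKM and the fibroblast markers to 23.8, 15.1 and 21.0 RPKM.

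Markers of other cells were measured in the same libraries. Of 15 fibroblast genes, chosen because feeder cells are fibroblasts, 9 were past 1.5-fold higher and 1 lower in AP3 against WT ESCs (backgrounds 11.1% and 13.9%), and their summed level was 90.8 against 60.5 RPKM. The collagen gene *Col1a2* was at 22.5 RPKM in AP3 and 12.9 RPKM in WT. *Lum* was listed at 0 in WT and 0.333 RPKM in AP3, and *Postn* at 0.112 RPKM in WT and 0 in AP3. Both are near the floor and are named outside the rule for list genes. The part of these cells in the higher endoderm factors of AP3 ESCs was not tested. In the library labelled KD the summed fibroblast level was below that of WT on both days (48.3 against 60.5 RPKM at D0, and 15.1 against 23.8 RPKM at D3), while the summed level of the 6 factors was above it (12.5 against 8.23 RPKM, and 61.7 against 37.2 RPKM). From D0 to D3 the fibroblast sum was lower and the factor sum higher in all 3 lines. In AP3 against WT EBs, 7 of the 15 fibroblast genes were past 1.5-fold higher and 1 lower (backgrounds 10.4% and 11.7%). Their median log2 change was 0.55, or 0.05 with a pseudocount of 1. The lower gene was *Thy1*, at 9.19 RPKM in WT and 3.56 RPKM in AP3. Of 14 heart and mesoderm genes, where *Gata4* and *Gata6* are also used, 11 did not reach 1 RPKM in any library. The summed level of 12 endothelial genes, a cell type that uses *Sox7* and *Sox17*, was 36.3, 27.6 and 36.4 RPKM at D0 and 47.4, 46.8 and 49.2 RPKM at D3 in WT, the library labelled KD and AP3. In AP3 against WT, 1 of the 12 was past 1.5-fold higher and 2 lower at D0. At D3, 7 were past it higher and none lower (backgrounds 10.4% and 11.7%), with a median log2 change of 0.88 that was 0.17 with a pseudocount of 1, and 6 of the 12 were highest of the 6 libraries in AP3 EBs, as were 14.8% of all entries. The part of these cells in the *Sox7* and *Sox17* levels was not tested. The endothelial cadherin gene *Cdh5* stayed at or under 0.366 RPKM except in AP3 EBs, at 1.60 RPKM (named after its values were seen). Definitive endoderm markers were a list of 12 genes, of which 1 was past 1.5-fold higher and 3 lower in AP3 against WT ESCs, with a median of −0.06 (backgrounds 11.1% and 13.9%).

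Across the 6 libraries the 6 factors resembled each other, with Pearson's r of log2(RPKM + 0.1) between 0.90 and 0.997 over the 15 pairs, the highest for *Gata4* with *Gata6*. The libraries are shared by all genes, and the values describe 6 points. Among 2429 entries with a mean of at least 1 RPKM and a log2 range of at least 1, those most like *Gata4* were *Lama1*, *Gata6*, *Npl* (a sialic acid lyase gene), *Serpinh1* (a collagen chaperone gene) and *Ankrd33b*, with r from 0.991 to 0.997. Most like *Gata6* were *Npl*, *Gata4*, *Lama1*, *Efna3* (an ephrin gene) and *Serpinh1* (0.987 to 0.998). *Npl* was at 8.49, 12.9 and 31.3 RPKM in ESCs, and 34.1, 64.9 and 41.8 RPKM in EBs in WT, the library labelled KD and AP3, the order that *Gata6* had.

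*Sox17* was most like *Tfpi* (an inhibitor of coagulation), *Ifi30* (a lysosomal thiol reductase gene), *Srgn* (a proteoglycan gene), *Bmper* (which encodes a BMP-binding protein) and *Ctsl* (a lysosomal protease gene), with r from 0.991 to 0.996. In the same order of lines, *Tfpi* was at 11.5, 11.7 and 25.8 RPKM at D0, with WT and the library labelled KD nearly equal as for *Sox17*, and at 42.0, 58.4 and 44.6 RPKM at D3. The entries most like *Sox7* included *Foxq1* (a forkhead gene), *Dpagt1* (an enzyme of N-glycan synthesis), *Pcbd1* (a pterin dehydratase gene) and *Galnt3* (0.976 to 0.997). *Foxq1* was at 2.15, 3.97 and 5.04 RPKM in ESCs, and 7.96, 15.1 and 10.0 RPKM in EBs.

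*Foxa2* was most like *Hopx* (a homeodomain gene), *Crtap* (a collagen modification gene), *Abhd14b*, *Aqp8* (a water channel gene) and *Efna3*, with r from 0.988 to 0.999. *Hopx* was at 1.86, 4.04 and 6.44 RPKM in ESCs, and 12.8, 20.2 and 10.2 RPKM in EBs, with AP3 highest of the lines in ESCs and lowest in EBs as for *Foxa2*. *Hnf4a* was most like *P4ha1* (a collagen prolyl hydroxylase gene), *Ctns* (a lysosomal cystine carrier gene), *S100g* (a calcium-binding protein gene), *Sccpdh* and *Pga5* (a pepsinogen gene), with r from 0.990 to 0.997. *P4ha1* was at 13.4, 14.0 and 18.7 RPKM in ESCs, and 31.6, 57.1 and 28.4 RPKM in EBs, so that its EB library labelled KD stood apart as that of *Hnf4a* did.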

How the data were processed

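Poly(A)-selected RNA of 6 conditions was sequenced with 1 library each. The authors mapped the single-end reads to the mm9 genome using TopHat (version 1.14 in the submitters' processing notes, 1.4.1 in the methods) and Bowtie 0.12.7, allowing 2 mismatches and 20 locations, and deposited the RPKM of each gene from Cufflinks 1.3.0. The 6 columns of the authors' own log2 comparisons were not used. RPKM are not counts, and reads were estimated from the lowest peak of RPKM times length over 3696 single-transcript genes, an estimator chosen after the data were seen. The 1.5-fold call, the depth estimate and the limma fit were first tested on simulated data. The simulation for limma held no differences between lines, and the counting intervals and Pearson's r were not tested in this way.

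Log2 changes are log2((RPKM + 0.001)/(RPKM + 0.001)), which leaves low genes noisy, and a gene was called past 1.5-fold, as in the study. Differences between lines on a day have 1 library each and were not tested. The day change over the 3 lines was fitted with limma 3.58.1 (R 4.3.3, mean-variance trend, Benjamini-Hochberg adjustment) on log2(RPKM + 0.1), with line as a block, a fit added after the data were seen. Background shares cover all 21639 entries, or the 12702 of at least 1 RPKM in a library for limma and where this is said. Intervals beside limma values are its 95% confidence intervals over lines, all others are exact 95% counting intervals, and PCR copies of a molecule were not told apart from other reads. Members, lists and rules were chosen with earlier results of these data known. Exons and transcript lengths (the longest transcript of a gene) came from GENCODE of the same build. List genes were named if at or above 5 RPKM in a library or among the 3 largest changes each way, and genes most like each factor by Pearson's r. Alternatives were pseudocounts of 0.1 and 1, a filter at 1 RPKM, centring on the median ratio, a 2-fold threshold, and summed entries of a symbol. The count without libraries labelled KD was added after the data were seen. Python 3.11.15, numpy 2.4.6, pandas 2.3.3 and scipy 1.17.1 were used. *Nanog*, *Tfcp2l1*, *Rhox5*, *Col6a3*, *Tfap2c* and *Map2* were not analysed here, and 1 gene and 1 motif are not reported here.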

Additional observations from a re-analysis of the deposited data

Results flagged for a closer look

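For all 6 factors the difference between AP3 and the library labelled KD had opposite signs on the 2 days, above 0 in ESCs and below 0 in EBs, as for 19.1% of all entries. The D3 change minus the D0 change was −2.08 for *Gata4*, −1.67 for *Gata6*, −2.11 for *Sox17*, −1.01 for *Sox7*, −1.50 for *Foxa2* and −2.68 for *Hnf4a* on the log2 scale. The difference between AP3 and WT also had opposite signs for 4 factors, in the same direction as 18.4% of all entries, with values of −1.93 for *Gata4*, −1.70 for *Sox17*, −2.11 for *Foxa2* and −1.47 for *Hnf4a*. The D3 changes of AP3 against WT were small, and for *Gata4*, *Foxa2* and *Hnf4a* their 95% counting intervals (−0.17 to 0.10, −0.79 to 0.07 and −0.61 to 0.19) include 0, so that the sign at D3 is not set beyond counting error, whereas that of *Sox17* (−0.46 to −0.01) does not include it. With 1 library per condition neither difference was tested. Each is a difference of 2 changes that were measured in different pairs of libraries, and 1 library that stands apart would move it.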

How the results depend on the processing

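Of 211 recomputed log2 changes of the 6 factors, 202 kept their direction and their side of the 1.5-fold threshold, and none changed sign past it. The filter at 1 RPKM gave 49 of the 211, which are the main values themselves and could not move. Centring shifted a comparison by at most 0.05. A pseudocount of 0.1 left all 54 values on their side of the threshold, and a pseudocount of 1 left 46 of 54. With a pseudocount of 1, which shrinks low values, 8 fell under the threshold: *Hnf4a* at D0 (0.23) and *Sox7* at D3 (0.54) in AP3 against WT, *Gata4* (0.49), *Sox7* (0.53) and *Foxa2* (0.41) in the library labelled KD against WT at D0, *Foxa2* (0.36) and *Hnf4a* (0.19) in AP3 against the library labelled KD at D0, and *Sox17* (−0.55) at D3. Centring brought *Gata6* past it in the library labelled KD at D0 (0.60). Counts of factors past the threshold moved by over 1.5 times with a pseudocount of 1 in AP3 against WT at D3 (0), in the library labelled KD against WT at D0 (0) and in AP3 against the library labelled KD at D0 (3). At 2-fold they were 0 for AP3 against WT and 2 for the library labelled KD against WT at D3, and 3 at D0 and 1 at D3 for AP3 against that library. The shares of all entries at these settings were not computed. The pseudocount of 1 moved 17 of 36 counts of the partner, effector, parietal and fibroblast lists by over 1.5 times, among those given above the 9 partners of AP3 against WT at D0, which became 3, and summed entries moved 0. Filtered at 1 RPKM, 5 of the 6 factors entered the comparison of AP3 with WT at D0, and 3 that of the library labelled KD with WT. Depth limits *Hnf4a* and *Foxa2* in ESCs. The factors that changed sides past the threshold between AP3 and the library labelled KD numbered 4 with a pseudocount of 0.1, 1 with a pseudocount of 1 and 0 at 2-fold. In the limma fit of D3 against D0, where the replicate block is the line, which pairs the days, all 5 factors that reached 1 RPKM in an ESC library had an adjusted p under 0.05, 4 of them without the block (*Gata4* at 0.0502), 5 with pseudocounts of 0.001 and 1, and 0 of the 6 factors without the filter at 1 RPKM. Leaving out 1 line at a time gave 0 to 3, where 3 factors reached 1 RPKM in ESCs without AP3.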

Other observations

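Genes of the Nodal pathway, which acts upstream of definitive endoderm, were measured in a list of 16 signalling genes. *Lefty1* and *Lefty2*, which encode inhibitors of Nodal, were at 47.8 and 22.1 RPKM in WT ESCs and at 10.9 and 3.27 RPKM in AP3 ESCs, and in EBs *Lefty1* was at 95.1 and 147 RPKM and *Lefty2* at 52.7 and 56.3 RPKM. *Fgf5*, a gene of the epiblast, was at 0.539 RPKM in WT ESCs and 0.106 RPKM in AP3 ESCs, and between 5.51 and 7.45 RPKM in EBs. Of the 16 genes, 1 was past 1.5-fold higher and 4 lower in AP3 against WT ESCs (backgrounds 11.1% and 13.9%), and 2 and 0 at D3 (10.4% and 11.7%). The gene past it higher in ESCs was *Foxh1*, at 16.4 RPKM in WT and 26.1 RPKM in AP3. *Nodal* itself, at 14.8 and 10.4 RPKM, was not past it.

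Of 10 pluripotency genes, none was past 1.5-fold higher and 4 were lower in AP3 against WT ESCs (backgrounds 11.1% and 13.9%). *Klf4* was at 121 RPKM in WT and 65.9 RPKM in AP3 ESCs and between 14.9 and 17.4 RPKM in EBs, and *Sox2* was at 191 and 110 RPKM in ESCs and between 141 and 186 RPKM in EBs. *Pou5f1* was at 421 and 540 RPKM in ESCs of the same lines.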
